A study of Homo sapiens with 4 samples.

Results

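The comparison described here set the array of MCF10A cells labelled with a stable Her2 transfection against the array of MCF10A cells with a stable LacZ transfection, 2 of the 4 arrays of the study, chosen by these labels. MCF10A is a non-tumorigenic human breast epithelial line. The 4 groups were LacZ, a bacterial enzyme gene used as the control, Her2, the H1047R variant of PIK3CA (PIK3CA-H1047R), and Her2 with PIK3CA-H1047R, each grown untreated in SFIHE medium and measured on 1 array. All groups share the parental line, the medium and the transfected state. Whether each transfected line was 1 clone or a pool, and which promoter drove the introduced gene, was not stated by the labels. With 1 array a side there is no replicate spread and no test, and an effect of Her2 cannot be told apart from anything else that differed between these cultures or arrays.

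Her2 is the protein of ERBB2, a receptor tyrosine kinase without a known ligand of its own that pairs with the other ERBB receptors and signals through the MAPK and PI3K pathways. In breast epithelium it is known as an amplified oncogene. Epithelial cells hold together through cadherin, desmosome and tight junctions and keep a polarized surface, whereas mesenchymal cells secrete a fibronectin-rich matrix and hyaluronan. These gene programmes often move in opposite directions in cultured epithelium.

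Every value below is on the log2 scale and belongs to 1 probe set, so a difference of 1 is 2-fold, and all differences are the Her2 array minus the LacZ array unless stated. Levels were not compared between genes. Counts cover 4309 of 20456 measured genes, those reaching a log2 value of 5 on at least 1 of the 4 arrays. A value under 2 was called near background: 21 measured genes of other organs, such as ALB of liver and HBB of red cells, read 0.37 to 1.89 on the LacZ array and 0.33 to 1.90 on the Her2 array, and the median of all 53617 probe sets was 1.17 and 1.16.

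The introduced gene was examined first, and it went against the label. The ERBB2 probe set, which the annotation also gives to the microRNA gene MIR4728, read 5.96 on the LacZ array and 4.29 on the array labelled Her2, a difference of -1.67. It read 8.48 on the PIK3CA-H1047R array and 7.39 on the array with both. The Her2-labelled array thus had the lowest of the 4 values. Counted genes beside ERBB2 on its chromosome were also lower on it: all 6 counted ones of 14 measured lay below 0 with a median of -0.77, among them the adaptor GRB7 at -1.54, the proteasome subunit PSMD3 at -1.19, MIEN1 at -0.87 and STARD3 at -0.68. Over all 14 measured neighbours the median was -0.44, with 5 near background on both arrays. Of all 4309 counted genes 2233 lay above 0. These neighbours were chosen after values were seen. Whether the probe set reads the introduced sequence as well as the cell's own gene was not stated. Each "Her2 array" below therefore means the array labelled Her2, and since each group has 1 array, no result can be given without it. Values on all 4 arrays are given for the genes the results turn on.

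Most measured basal markers read above background on both arrays. Among basal and myoepithelial markers, KRT5 read 7.27 and 7.08, the integrin chains ITGB4 9.51 and 8.94 and ITGA6 8.59 and 8.68, and the laminin chain LAMB3 8.61 and 8.19, on the LacZ and Her2 array respectively. Of 10 measured basal markers 7 were counted and 2 were near background on both arrays. Of the 7 counted basal markers 0 differed at least 2-fold, and their median difference was -0.19. E-cadherin (CDH1) read 9.34 and 8.94. Endothelial and adipocyte markers had 0 counted members of 9 and 7 measured, and immune markers 1 of 9, at a difference of 0.26. Of 20 measured luminal markers 5 were counted, 2 of them at least 2-fold lower and 0 higher, with a median of -0.82.

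The promoter sequences of the leading genes are shown first, for the 3 leading genes in each direction whose promoter could be printed. They are the 250 bases before the RefSeq start (GRCh38.p14, first entry of the gene). Capitals mark matches on either strand to CAGGTG, the E-box form bound by repressors of the ZEB and SNAI families, to TATAAA, the TATA box, and to TGANTCA, the AP-1 element. These 3 motifs do not share letters in any window below.
POSTN, chr13:37598769-37599018, minus strand: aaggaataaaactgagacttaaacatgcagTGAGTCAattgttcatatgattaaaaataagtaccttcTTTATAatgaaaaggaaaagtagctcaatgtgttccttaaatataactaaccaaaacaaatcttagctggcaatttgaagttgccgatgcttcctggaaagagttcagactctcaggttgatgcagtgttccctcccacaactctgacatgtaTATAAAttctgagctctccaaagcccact
DPT, chr1:168729207-168729456, minus strand: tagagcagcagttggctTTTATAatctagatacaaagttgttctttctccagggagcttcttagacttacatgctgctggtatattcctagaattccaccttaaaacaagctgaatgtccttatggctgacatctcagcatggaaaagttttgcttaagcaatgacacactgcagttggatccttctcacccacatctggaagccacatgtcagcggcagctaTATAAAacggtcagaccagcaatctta
PTX3, chr3:157436600-157436849, plus strand: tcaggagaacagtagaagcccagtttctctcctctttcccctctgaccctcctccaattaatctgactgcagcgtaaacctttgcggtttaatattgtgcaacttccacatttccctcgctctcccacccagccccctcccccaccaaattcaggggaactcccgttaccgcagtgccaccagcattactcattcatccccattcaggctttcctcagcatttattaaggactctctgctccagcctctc
KLK6, chr19:50969592-50969841, minus strand: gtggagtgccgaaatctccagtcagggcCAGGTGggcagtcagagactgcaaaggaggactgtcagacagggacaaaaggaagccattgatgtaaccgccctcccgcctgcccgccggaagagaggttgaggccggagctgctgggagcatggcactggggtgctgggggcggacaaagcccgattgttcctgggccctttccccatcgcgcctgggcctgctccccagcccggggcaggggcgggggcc
TTC9, chr14:70641666-70641915, plus strand: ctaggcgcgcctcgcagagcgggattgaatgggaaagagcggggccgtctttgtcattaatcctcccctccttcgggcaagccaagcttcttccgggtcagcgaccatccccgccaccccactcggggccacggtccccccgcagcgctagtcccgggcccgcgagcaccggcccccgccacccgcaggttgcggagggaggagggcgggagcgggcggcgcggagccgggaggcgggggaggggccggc
KLK7, chr19:50983918-50984167, minus strand: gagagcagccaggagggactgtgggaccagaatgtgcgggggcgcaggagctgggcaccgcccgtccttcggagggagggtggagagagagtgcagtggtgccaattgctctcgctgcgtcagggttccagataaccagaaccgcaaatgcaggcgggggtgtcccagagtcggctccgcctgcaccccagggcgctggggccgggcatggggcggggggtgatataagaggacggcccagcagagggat
G and C made up 36.4% of the POSTN window, 42.4% of the DPT window and 51.6% of the PTX3 window, against 66.8% for KLK6, 74.0% for TTC9 and 67.2% for KLK7. These 6 windows do not stand for their sets: over the 104 higher genes with an entry the median was 65.0%, against 65.6% for all counted genes with one. POSTN and DPT each held TATAAA letters close before the start, at 29 and 27 bases, and a second match farther up. KLK6 held 1 CAGGTG match, 222 bases before the start, and POSTN 1 TGANTCA match. Over all 27305 genes with a window of this length, 17.5% held CAGGTG, 11.1% TATAAA and 6.60% TGANTCA. Among the 3602 counted genes with an entry these shares were 13.4%, 5.11% and 3.58%. The lower genes were not compared as a set, because only 78 of the 110 had an entry. A match is a description of letters and not a shown binding site.

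Among the gene lists examined, those of the extracellular matrix held genes higher on the Her2 array and those of epithelial surfaces genes lower on it, and both were a minority of the genes past 2-fold. The 6 matrix lists together had 35 counted genes, 14 of them at least 2-fold higher and 0 lower, and the 8 epithelial lists 51, with 19 lower and 1 higher, the cadherin CDH11. These lists and their members were chosen with earlier results of these data known, so the counts are no independent support for the contrast. Among the higher matrix genes, FBN1, HAS2, CEMIP2 and SRPX reached the filter only through the array with both. MMP2 reached it only through the Her2 array, and DPT and PTX3 only on arrays labelled with Her2. Among the lower epithelial genes, TTC9 reached it only through the PIK3CA-H1047R array and KRT80 only through the LacZ array. Of the 4309 counted genes, 127 lay 1 log2 unit or more above the LacZ value (2.95%) and 110 as far below it (2.55%). With the labels of the Her2 and PIK3CA-H1047R arrays exchanged, as a check chosen after the ERBB2 value was seen, the counts were 303 and 176, with 44 and 25 genes shared. The median difference was 0.02, and 3092 genes (71.8%) differed by less than 0.5 either way. The largest differences were upward: 15 genes differed by at least 2 log2 units upward and 6 downward, and 4 genes differed by at least 3, all upward. Of the 127 higher genes 9 were near background on the LacZ array, and of the 110 lower genes 2 were near background on the Her2 array, so the size of those differences is uncertain.

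**Figure D1:**
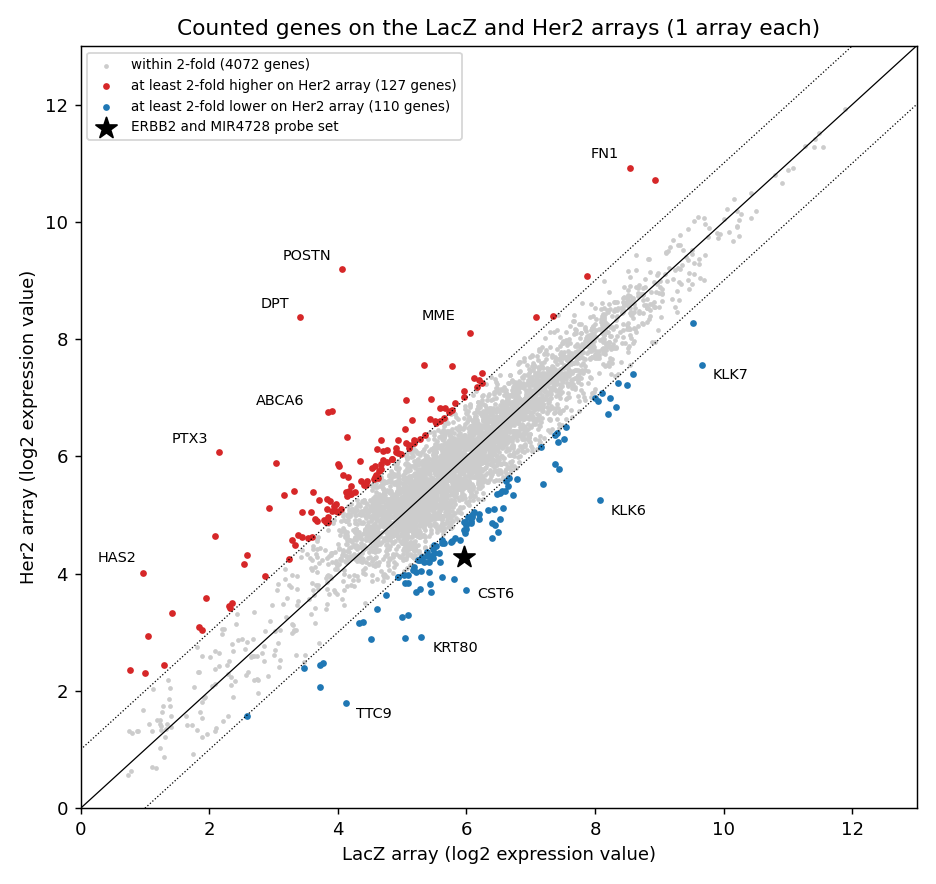
Log2 expression values of the 4309 counted genes on the LacZ array (x axis) and the Her2 array (y axis), 1 point a gene; the solid line marks equal values and the dotted lines 2-fold differences. The 127 higher genes are red and the 110 lower genes blue, POSTN and DPT stand farthest above the line, KLK6 farthest below, and the star is the ERBB2 probe set at 5.96 and 4.29.

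Secreted matrix proteins led the higher genes. POSTN (periostin, a matrix protein that binds integrins) read 4.07 on the LacZ array, 9.19 on the Her2 array, 7.90 on the PIK3CA-H1047R array and 8.62 on the array with both. DPT (dermatopontin, which assists collagen fibre assembly) read 3.41, 8.38, 3.69 and 7.86 in the same order of arrays. The LacZ value was the lowest of the 4 for both genes, while the PIK3CA-H1047R array was high for POSTN and near the LacZ value for DPT. DPT reached the filter only on arrays labelled with Her2. FN1 (fibronectin, a ligand of integrins) read 8.54, 10.91, 9.09 and 10.32, a difference of 2.37. Of 25 measured stromal matrix genes 14 were counted, 5 of them at least 2-fold higher and 0 lower, with a median of 0.67 against 0.02 for all counted genes. The other members past 2-fold were SRPX at 1.25, from 1.84 near background, and TGFBI, a matrix protein induced by TGF-beta, at 1.10. SRPX reached the filter only through the array with both. With the filter on the LacZ and Her2 arrays, 4 of 8 stromal matrix genes were at least 2-fold higher. THBS1 (thrombospondin) differed by 0.48, the tenascin TNC by 0.40 and FBLN1 (fibulin) by -0.26. Fewer than 2-fold, too, was VCAN (versican, a hyaluronan-binding proteoglycan) at 0.97.

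Microfibril genes were higher in part. FBN1, the fibrillin that forms the core of microfibrils, read 2.09 on the LacZ array, 4.64 on the Her2 array, 2.12 on the PIK3CA-H1047R array and 5.65 on the array with both. LTBP1, which anchors latent TGF-beta to microfibrils, read 3.04, 5.88, 5.00 and 7.14 in that order. FBN1 was higher on both arrays labelled with Her2 than on the others, and LTBP1 was lowest on the LacZ array. FBN1 reached the filter only through the array with both, so a high value there was a condition of being counted. With the filter on the LacZ and Her2 arrays, 2 of 3 microfibril genes were at least 2-fold higher. LOX, which crosslinks collagen and elastin, differed by 1.02 (6.17 to 7.19) and its relative LOXL1 by -0.57. Only 4 of 17 measured members were counted, 3 of them at least 2-fold higher, and over all 17 measured members the median was -0.035 with 8 near background on both arrays. Collagens were mostly low: 1 of 18 measured chains was counted, COL12A1 at 0.98, and COL1A1 read 2.24 on both arrays and COL1A2 0.87 and 0.73.

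Hyaluronan genes were higher as well. HAS2, a hyaluronan synthase of the plasma membrane, read 0.98 on the LacZ array, 4.01 on the Her2 array, 1.35 on the PIK3CA-H1047R array and 5.86 on the array with both. PTX3, a pentraxin that helps crosslink hyaluronan matrices, read 2.15, 6.07, 2.59 and 5.28 in that order. Both genes were high on the arrays labelled with Her2 and at or close to background on the others. PTX3 reached the filter only on arrays labelled with Her2, so a high value there was a condition of being counted. CEMIP2, a cell surface protein linked to hyaluronan breakdown, differed by 1.63 (2.54 to 4.17), UGDH, which makes a precursor sugar, by 0.78, and the receptor CD44 by -0.31. Of 7 counted members 3 were at least 2-fold higher and 0 lower, with a median of 0.97. HAS2 and CEMIP2 reached the filter only through the array with both, and with the filter on the LacZ and Her2 arrays 1 of 4 members was at least 2-fold higher, PTX3.

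Proteases and their inhibitors were split. MMP2 (gelatinase A) read 3.92 on the LacZ array, 6.78 on the Her2 array, 2.72 on the PIK3CA-H1047R array and 4.53 on the array with both, so the Her2 array was highest. MMP2 reached the filter only through the Her2 array, so a high value there was a condition of being counted. TIMP3, a matrix-bound metalloproteinase inhibitor, read 3.17, 5.35, 6.57 and 4.53, with the LacZ array lowest. TIMP1 and TIMP2 differed by 0.20 and 0.17, and MMP1 was near background on both arrays (1.29 and 0.87). Among 8 counted cell surface peptidases, 2 were at least 2-fold higher: MME (neprilysin) with 6.06, 8.10, 6.32 and 8.53 over the 4 arrays, and FAP, a serine protease of activated fibroblasts, with 4.34, 5.92, 4.71 and 4.86. FAP, too, reached the filter only through the Her2 array. ADAM9 differed by 0.82, ADAM10 by 0.74 and ANPEP by -0.02.

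Receptors for this matrix differed less. Of 10 counted integrin chains 0 were at least 2-fold different, 8 were above 0 and the median was 0.46, from ITGB4, the hemidesmosome chain, at -0.58 to ITGB6 at 0.88. ITGAV and ITGA5, chains of fibronectin receptors, differed by 0.77 and 0.59. Among laminins, LAMB1 differed by 1.08 and LAMC1 by 0.78, whereas the epithelial chains LAMB3 and LAMA5 differed by -0.42 and -0.49.

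**Figure D2:**
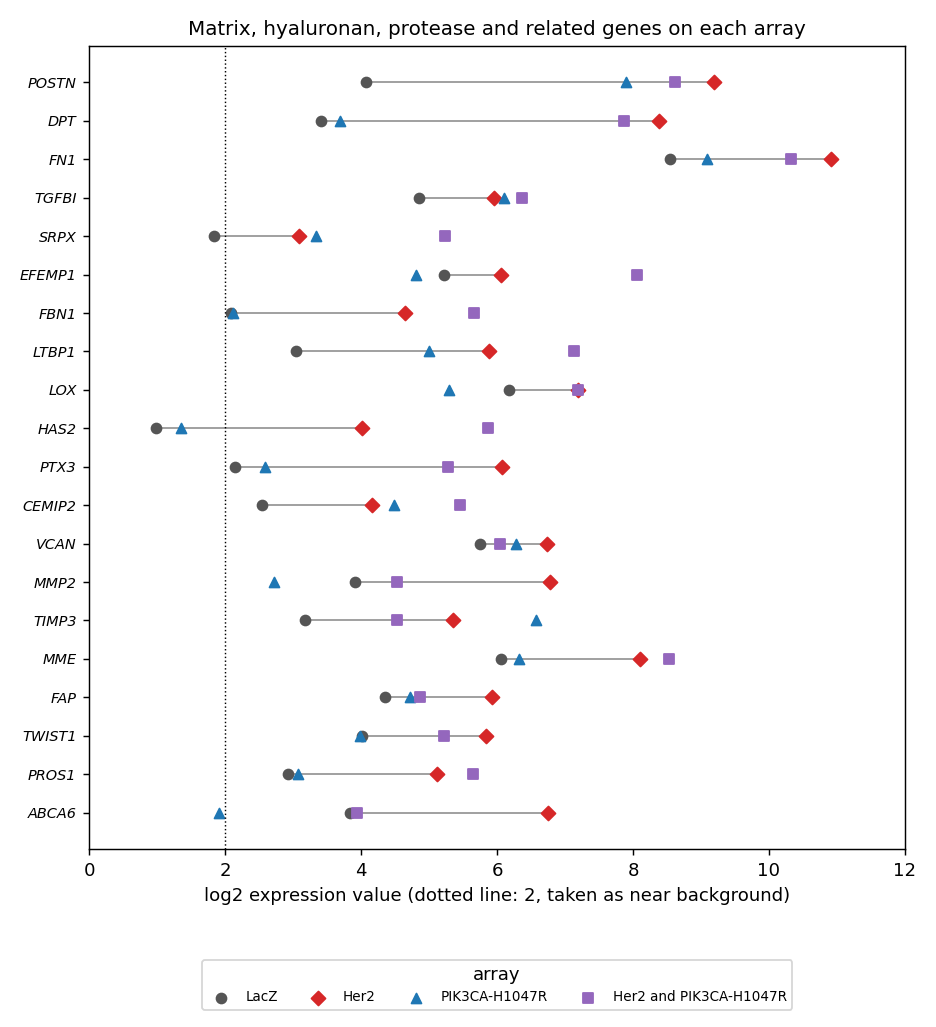
Log2 expression values (x axis) of 20 matrix, hyaluronan, protease and related genes (y axis) on the 4 arrays, 1 marker an array; grey lines join the LacZ and Her2 arrays and the dotted line marks 2, under which values were called near background. The Her2 diamond lies to the right of the LacZ circle for every gene shown, from 0.83 for EFEMP1 to 5.12 for POSTN, because higher genes were picked for the plot; LOXL1 (-0.57), CD44 (-0.31), FBLN1 (-0.26) and ANPEP (-0.02) of the same lists are not drawn.

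Of the mesenchymal transcription factors, TWIST1, a factor of mesoderm and of epithelial-mesenchymal transition, was the only counted one past 2-fold. It read 4.02 on the LacZ array, 5.84 on the Her2 array, 3.99 on the PIK3CA-H1047R array and 5.22 on the array with both. TWIST1 thus reached the filter only on arrays labelled with Her2, and a high value there was a condition of being counted. SNAI2 differed by 0.45 (9.32 to 9.77), and 6 of the 11 measured members were near background on both arrays. CDH2 (N-cadherin) was near background on both (0.97 and 1.67), while CDH11, a cadherin of mesenchymal cells, differed by 1.21 (5.43 to 6.63). Most fibroblast markers were not detected: 9 of 12 measured markers were near background on both arrays, including DCN (0.73 and 0.57), LUM (0.78 and 0.63), PDGFRB (0.86 and 0.78) and COL1A2. DPT and FAP were the 2 markers at least 2-fold higher, and the summed linear level of the 12 markers was 53 on the LacZ array and 414 on the Her2 array, a sum led by DPT. The median difference over the 12 was -0.04.

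Several higher genes stood outside these lists. ABCA6, a lipid transporter family member, read 3.84 on the LacZ array, 6.75 on the Her2 array, 1.91 on the PIK3CA-H1047R array and 3.94 on the array with both. ABCA9, a relative of ABCA6 in the same gene cluster and below the filter, read 1.22, 3.01, 0.76 and 1.27. For both transporters the Her2 array was the highest of the 4. The cluster members ABCA8 and ABCA10 were near background on both arrays of the comparison, and ABCA5 differed by 0.76. PROS1 (protein S, an anticoagulant and ligand of TAM receptors) read 2.93, 5.12, 3.07 and 5.64, high on both arrays labelled with Her2, and was the only 1 of 9 counted complement and coagulation genes past 2-fold. PCDHB14, a beta protocadherin, read 4.14, 6.34, 4.16 and 3.89, KCNJ15, an inward rectifier potassium channel, 5.77, 7.54, 6.30 and 6.64, and GPC6, a cell surface glypican, 5.45, 6.98, 5.95 and 5.89. These 3 genes were highest on the Her2 array and lay closer together on the others. SULT1E1 (oestrogen sulfotransferase) differed by 1.86, ALCAM, an adhesion molecule, by 1.61, and SLITRK6, a neuronal-type membrane protein, by 2.22. ABCA6, PCDHB14 and SULT1E1 reached the filter only through the Her2 array, and PROS1 only on arrays labelled with Her2. A high value there was thus a condition of being counted.

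Kallikrein proteases led the lower genes. KLK6 read 8.07 on the LacZ array, 5.25 on the Her2 array, 3.70 on the PIK3CA-H1047R array and 2.71 on the array with both. KLK7, which cleaves desmosome proteins in skin, read 9.66, 7.57, 9.33 and 6.41 in that order. For KLK6 the LacZ array stood above all others, and for KLK7 both arrays labelled with Her2 were lower. KLK10 differed by -1.51 and KLK5, the trypsin-like activator of the cascade, by -1.25. All 4 counted kallikreins of 9 measured were at least 2-fold lower. Membrane-anchored proteases were lower too: PRSS8 (prostasin) differed by -1.21 (7.51 to 6.30), ST14 (matriptase, its partner) by -1.11, and their inhibitor SPINT1 by -0.90. The sodium channel subunits SCNN1B, SCNN1A and SCNN1G differed by -1.18, -0.51 and -0.27. Of these 7 counted protease, inhibitor and channel genes 3 were at least 2-fold lower and all 7 were below 0, with a median of -0.90.

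Polarity and trafficking genes had the lowest median of the lists with at least 5 counted members (-1.17 over 7 genes, 4 at least 2-fold lower). TTC9, a tetratricopeptide protein, read 4.12 on the LacZ array, 1.79 on the Her2 array, 5.12 on the PIK3CA-H1047R array and 2.25 on the array with both. MYO5B, a motor of recycling vesicles, read 6.56, 5.12, 6.37 and 3.19, and RAB25, its GTPase partner, 6.20, 4.94, 5.64 and 3.47. All 3 genes were lower on both arrays labelled with Her2 than on either of the others. TTC9 reached the filter only through the PIK3CA-H1047R array, so a high value there was a condition of being counted. AP1M2, an adaptor subunit of basolateral sorting, differed by -1.17, while MAL2, of apical transport, differed by 0.07 and PARD6B by -0.13.

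Junction genes were unevenly lower. In tight junctions, LSR, a receptor of tricellular contacts, differed by -1.12 (8.05 to 6.94), CLDN7 by -1.02, CLDN1 by -0.72 and the scaffold TJP1 by 0.21. JUP (plakoglobin, shared by desmosomes and adherens junctions) read 8.23, 6.99, 7.72 and 4.93 over the arrays, a difference of -1.24. The other 8 counted desmosome genes were within 2-fold, from PPL (periplakin) at -0.98 to DSC3 at 0.31. CDH3 (P-cadherin) differed by -0.68, EPCAM by -0.92 and CDH1 by -0.40. CDH1 stood at 5.07 on the array with both, against 8.94 to 9.34 on the other 3, so the Her2 array was close to the LacZ array for this gene. Of 6 counted tight junction genes 2, and of 9 counted desmosome genes 1, were at least 2-fold lower and 0 higher.

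Transcription factors of epithelium followed the same direction. EHF, an ETS factor, read 5.98 on the LacZ array, 4.69 on the Her2 array, 5.94 on the PIK3CA-H1047R array and 4.82 on the array with both. ESRP2, which directs epithelial splicing, differed by -1.14 and its relative ESRP1 by -0.61. TFAP2C differed by -0.96, GRHL2 by -0.82 and KLF5 by 0.04. Of 6 counted members 2 were at least 2-fold lower and 0 higher, with a median of -0.89.

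Counted keratins were all below 0, to unequal degrees. KRT80 read 5.30 on the LacZ array, 2.91 on the Her2 array, 4.83 on the PIK3CA-H1047R array and 3.98 on the array with both. KRT7, of simple epithelium, differed by -1.23 and KRT15, of basal cells, by -1.02, while KRT16 differed by -0.65 and KRT5 by -0.19. Thus 3 of 5 counted keratins were at least 2-fold lower, and 0 higher. Over all 16 measured keratins the median was -0.12, with 3 lower and 1 higher. Cornification genes went both ways: CST6, a cystatin of the cornified layer, read 6.0, 3.72, 4.72 and 4.09, a difference of -2.28. CASP14 (1.05 to 2.94) and SCEL (1.41 to 3.32) were higher, from near background. Both reached the filter only through the PIK3CA-H1047R array. The chemokine CXCL16 read 5.04, 2.91, 4.16 and 2.94. KRT80, CST6 and CXCL16 reached the filter only through the LacZ array, so a high value there was a condition of being counted. Among other lower genes, CALB2 (calretinin) differed by -1.53, CBLC, an epithelial ubiquitin ligase for receptor tyrosine kinases, by -1.63, LAD1 (ladinin, of basement membranes) by -1.58, PADI2, which converts arginine to citrulline, by -1.78, and CAVIN1, a coat protein of caveolae, by -1.66.

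**Figure D3:**
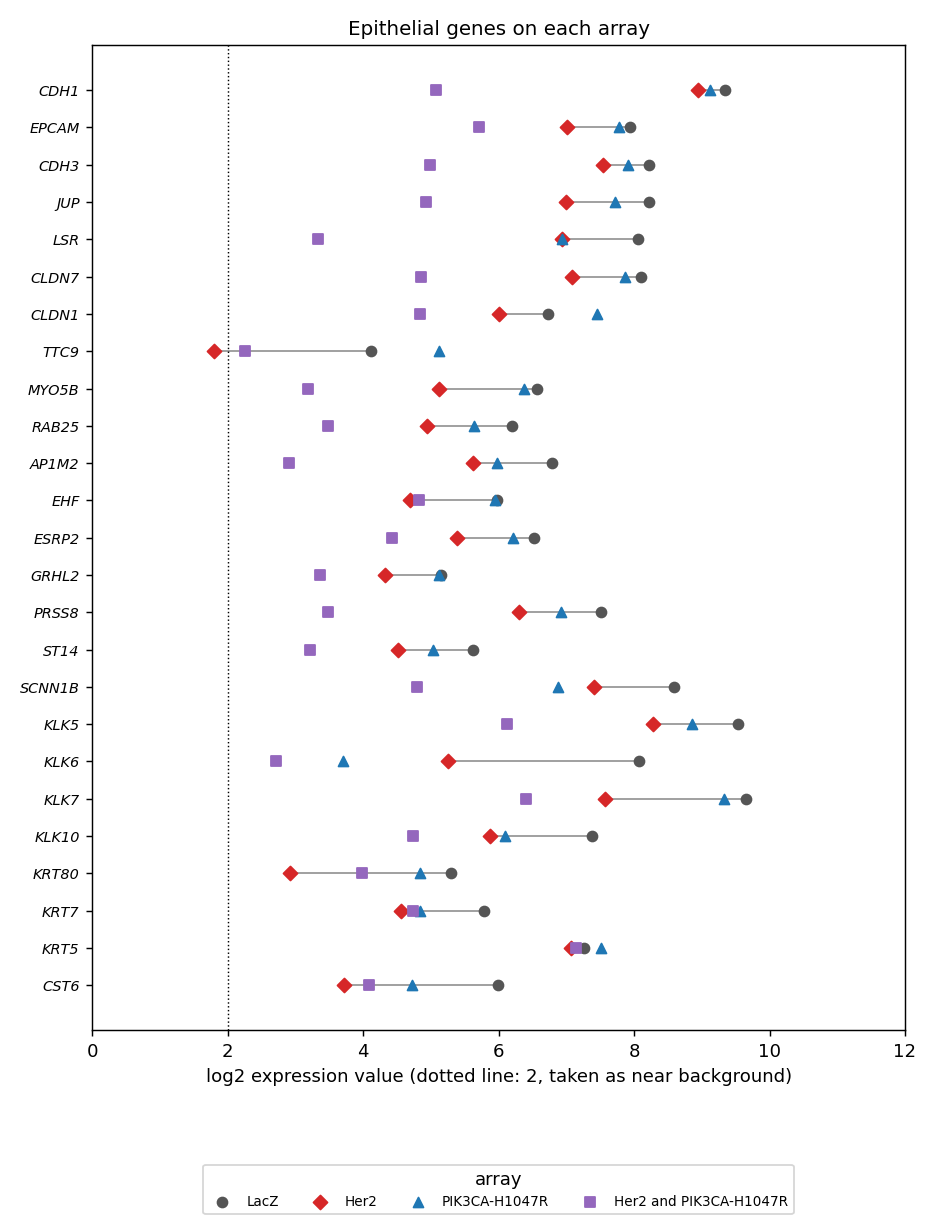
Log2 expression values (x axis) of 25 epithelial genes (y axis) on the 4 arrays, 1 marker an array; grey lines join the LacZ and Her2 arrays and the dotted line marks 2. The Her2 diamond lies to the left of the LacZ circle for every gene shown, from -0.19 for KRT5 to -2.82 for KLK6, because lower genes were picked for the plot; DSC3 (0.31), TJP1 (0.21), MAL2 (0.07) and KLF5 (0.04) of the same lists are not drawn.

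Signalling genes near ERBB2 differed by less than 2-fold in most cases. Among 7 counted ERBB receptors and ligands 0 were past 2-fold: EGFR differed by 0.51, the ligands EREG (epiregulin) by 0.75, EPGN (epigen) by 0.63 and HBEGF by -0.82. MAPK output genes leaned lower, with 13 of 15 counted members below 0, a median of -0.53 and 1 past 2-fold, the AP-1 subunit FOSL1 at -1.05. MYC differed by -0.80, the feedback inhibitor SPRY2 by -0.81, the phosphatase DUSP6 by -0.15 and CCND1 (cyclin D1) by -0.68. PI3K components had a median of 0.11 and 0 of 7 past 2-fold, with the regulatory subunit PIK3R1 at 0.86 and TSC2, a brake on mTOR, at -0.69. Of 8 counted FOXO targets 1 was past 2-fold, FBXO32, a ubiquitin ligase subunit of muscle wasting, at -1.15. The growth factor FGF2 differed by 1.16 (5.96 to 7.12), the only 1 of 6 counted IGF and FGF system genes past 2-fold.

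TGF-beta genes were split and most YAP targets lay above 0. Of 14 counted TGF-beta and BMP genes 8 lay above 0 and 6 below, with a median of 0.36, and 2 were at least 2-fold higher, LTBP1 and TGFBI, and 0 lower. The ligand TGFB2 differed by 0.90, the receptor TGFBR2 by 0.65, the feedback gene SKIL by 0.71 and PMEPA1 by -0.48. All 15 counted YAP and TEAD targets lay within 2-fold, 11 of them above 0, with a median of 0.45, CCN2 at 0.46 and the receptor kinase AXL at 0.84.

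Cell cycle genes were mostly dim on both arrays of this comparison, so their differences say little: 15 of 26 measured mitotic genes read below 3 on both, and with the filter on these 2 arrays 2 mitotic and 5 S phase genes remained, with medians of -0.47 and -0.11. With the filter over all 4 arrays 25 mitotic genes were counted, 0 past 2-fold upward and 2 downward, with a median of 0.08: TOP2A (topoisomerase) read 4.39 on the LacZ array and 3.17 on the Her2 array, and the proliferation marker MKI67 4.60 and 3.39. Both read far higher on the other arrays (6.50 and 8.73 for TOP2A). Others differed the other way, as the spindle protein ASPM (1.13 to 2.03) and the kinetochore protein CENPF (2.19 to 3.06), from values at or close to background. Among 18 counted S phase genes, TYMS (thymidylate synthase) differed by 1.10 and SLBP, which binds histone mRNA, by -1.04, and the median was -0.08. All 16 counted p53 targets lay within 2-fold, with a median of 0.01.

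Metabolic lists held few genes past 2-fold. Of 14 counted cholesterol genes, MVD differed by -1.01 and the median was 0.12. Fatty acid synthesis went both ways, with ACLY at -0.85, FASN (fatty acid synthase) at -0.84 and ACACA at -0.71, all steps that build fatty acids, and ACSL4, which activates long-chain fatty acids, at 1.05. Of 18 counted amino acid stress genes 1 was past 2-fold, the cystine transporter SLC7A11, with 7.08, 8.37, 8.06 and 6.52 over the 4 arrays. Glycolysis had 0 of 6 and class I antigen presentation 0 of 4 counted genes past 2-fold. Interferon-stimulated genes were mostly unmeasurable, with 3 of 33 counted and 0 of these past 2-fold.

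**Figure D4:**
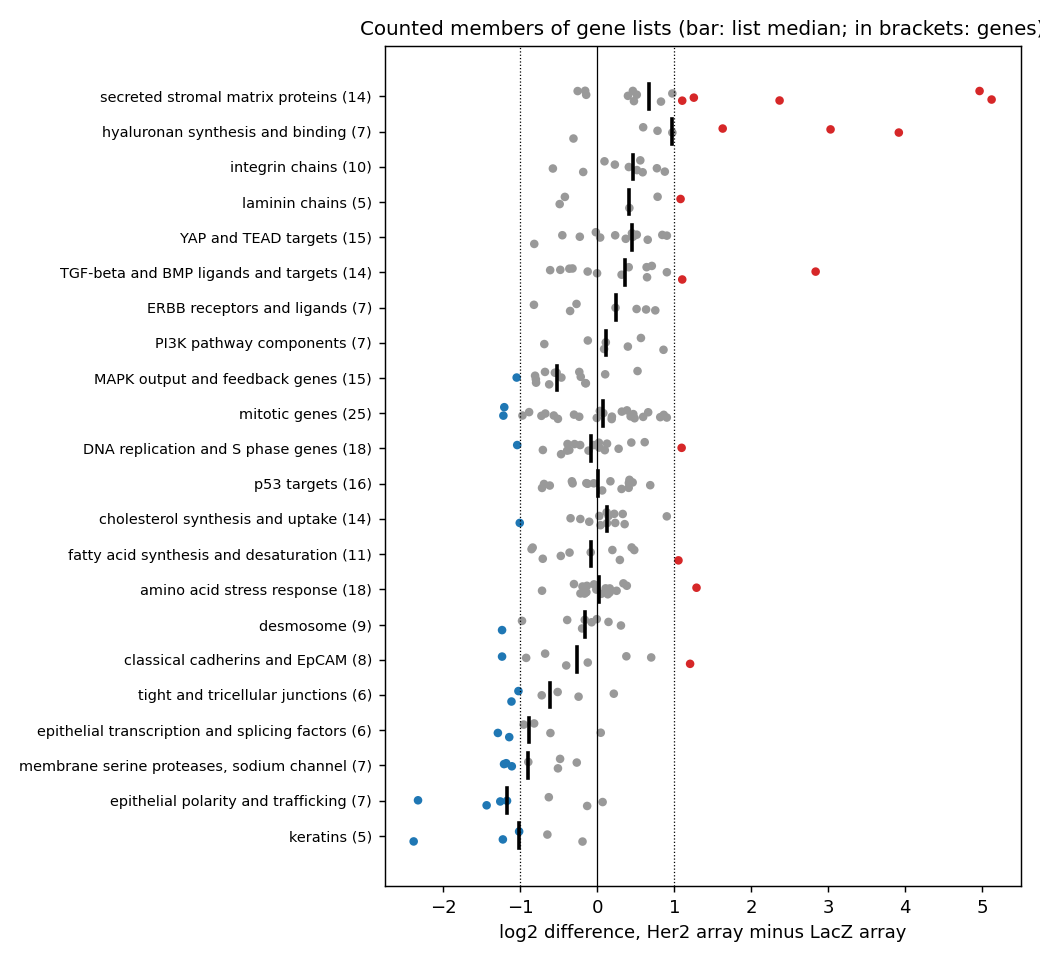
Log2 differences, Her2 array minus LacZ array (x axis), for the counted members of 22 gene lists (y axis, number of genes in brackets); each point is a gene, black bars are list medians, and dotted lines mark 2-fold. Polarity and trafficking genes have a median of -1.17 and stromal matrix genes one of 0.67, while mitotic genes centre near 0 at 0.08.

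A second pair of arrays, Her2 with PIK3CA-H1047R minus PIK3CA-H1047R, carries the same label difference and shares no array with the first. The ERBB2 probe set differed by -1.09 in this pair, so it went against the label here too. With the labels of the single-gene arrays exchanged, the second pair would not carry this label difference. Of the 127 higher genes, 52 were at least 2-fold higher there too, against 432 of all 4309 counted genes (10%), and 10 were at least 2-fold lower, against 8.87%. Of the 110 lower genes, 52 were at least 2-fold lower there and 8 higher. Genes could pass the filter through an array of this second pair alone. With the filter on the LacZ and Her2 arrays, 98 of the higher and 96 of the lower genes remained. How many of the 52 in each direction were among them was not counted, so these overlaps are not free of the filter. Groups differed in how far they followed. HAS2 (4.51), DPT (4.17), FBN1 (3.53), PTX3 (2.69), PROS1 (2.57), MME (2.21), LTBP1 (2.14) and ABCA6 (2.03) were higher again, whereas POSTN differed by 0.72, FAP by 0.15, KCNJ15 by 0.34 and PCDHB14 by -0.26. HAS2 and FBN1 reached the filter only through the array with both, so a high value there was a condition of being counted. DPT, PTX3 and PROS1 reached it only on arrays labelled with Her2, and ABCA6, FAP and PCDHB14 only through the Her2 array. Their being higher is thus not free of the filter. POSTN was already high on the PIK3CA-H1047R array. All 7 polarity and trafficking genes were at least 2-fold lower in the second pair, with MYO5B at -3.18, as were all 6 epithelial transcription and splicing genes but TFAP2C at -0.95. Of the polarity genes, TTC9 reached the filter only through the PIK3CA-H1047R array. Desmosome genes, within 2-fold in the first pair apart from JUP, were at least 2-fold lower in all 9 cases in the second. KRT7 (-0.11), KRT80 (-0.85), CST6 (-0.63) and KLK6 (-0.99) were less than 2-fold lower there. Whether the 2 pairs differ cannot be tested with 1 array a group.

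**Figure D5:**
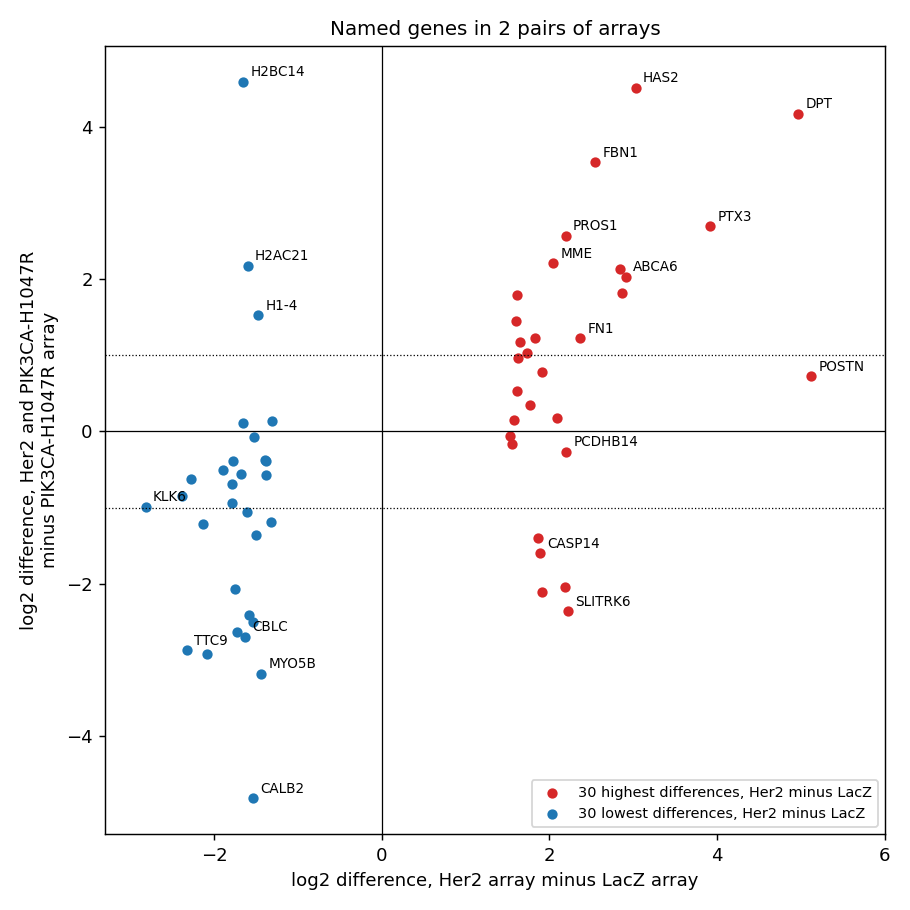
Log2 differences of the 60 named genes in the Her2 minus LacZ pair (x axis) and in the Her2 and PIK3CA-H1047R minus PIK3CA-H1047R pair (y axis), 1 point a gene; dotted lines mark 2-fold in the second pair. DPT lies at 4.97 and 4.17 and HAS2 at 3.03 and 4.51, while H2BC14, at -1.65 and 4.59, and SLITRK6, at 2.22 and -2.36, point opposite ways. HAS2 and H2BC14 reached the filter only through the array with both, and DPT only on arrays labelled with Her2.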

How the data were processed

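RNA of 4 stably transfected MCF10A samples was measured on 1 array each. The authors deposited RMA values on the log2 scale, 1 per probe set, and the submitters' processing notes name RMA and oligo. Versions, probe set definition and filters: not given in the sources used here. RMA corrects background, makes the arrays' distributions alike and combines the probes of a set, so differences of dim probe sets are compressed. The log base follows from RMA and the range of values.

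The platform annotation gave 1 symbol for 23871 of 53617 probe sets, several for 1842, and 27904 had none here. Through gene identifiers, 90 symbols were brought up to date (RefSeq, GRCh38.p14). No sequence from chromosome 8 was printed. ERBB2, PIK3CA and small RNAs, 5S ribosomal RNA copies included, were left out of counts, as were host genes with microRNA symbols. Of several probe sets of a gene (608 genes) the one with the highest mean over the 4 arrays was used. With 1 array a group there was no test: genes were counted at a log2 difference of 1 or more. The counting step was tested on simulated data. Named genes were the 30 highest and 30 lowest counted genes with characterised symbols, members of the lists, and ERBB2. The comparison, gene lists and members were chosen with earlier results of these data known, and 5 further lists after values were seen; of these, neighbours of ERBB2 stand in the report and the others under the closing observations. Alternatives were other filters, normalizations (limma 3.58.1, R 4.3.3), probe set rules and thresholds.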

Additional observations from a re-analysis of the deposited data

Results flagged for a closer look

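In 8 of the 60 named genes the difference of the Her2-labelled array from its partner pointed opposite ways, by at least 2-fold each, in the 2 pairs of arrays. With 1 array a group the difference between pairs was not tested. Higher in the first pair and lower in the second were SLITRK6 (2.22 and -2.36, second minus first -4.59), the inhibitor TIMP3 (2.18 and -2.04, -4.22), SCEL (1.91 and -2.11, -4.02), CASP14 (1.88 and -1.60, -3.48) and SULT1E1 (1.86 and -1.39, -3.26). SCEL and CASP14 reached the filter only through the PIK3CA-H1047R array, which is subtracted in the second pair. SULT1E1 reached it only through the Her2 array. A high value on that array was a condition of being counted, which favours the direction seen. Lower in the first and higher in the second were the histone genes H2BC14 (-1.65 and 4.59, 6.25), H2AC21 (-1.60 and 2.17, 3.77) and H1-4 (-1.47 and 1.53, 3.00). H2BC14 reached the filter only through the array with both, so a high value there was a condition of being counted. Histone mRNAs of this kind are made in S phase, and the proliferation marker MKI67 read 4.60 on the LacZ array, 3.39 on the Her2 array, 6.76 on the PIK3CA-H1047R array and 8.56 on the array with both. The part of proliferation in these differences was not tested.

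Outside the named genes, 1921 probe sets unnamed here passed the filter, and 316 of them differed at least 2-fold between the LacZ and Her2 arrays, 190 higher and 126 lower. Among counted genes 2.95% were at least 2-fold higher and 2.55% lower.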

How the results depend on the processing

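The main counts were 127 higher and 110 lower genes. Without a filter they were 380 and 341, with the filter at 3 they were 301 and 245, at 7 they were 29 and 26, and at a 1.5-fold threshold 490 and 468. All other planned settings gave counts within 1.5 times: the filter at 5 on the LacZ and Her2 arrays, a mean of at least 4, quantile normalization, cyclic loess, a median difference set to 0, the mean of all probe sets, and small RNAs kept. Quantile normalization gave 103 higher and 110 lower genes and cyclic loess 112 and 124, so the larger side turned. Chosen after seeing the data, both arrays at 3 or more gave 109 and 101, and exchanging the labels of the single-gene arrays, which the ERBB2 value puts in doubt, gave 303 higher and 176 lower genes, 44 and 25 of them shared with the main lists. Under all settings but the 1.5-fold threshold and the label exchange, which were not run gene by gene, the named genes that passed the filter kept their direction and stayed past 2-fold, 16 of 60 with the filter at 7. Over all lists and settings 122 list counts and 28 list medians moved, against 1002 and 482 that did not. Without a filter, medians of keratins (-1.02), kallikreins (-1.80) and polarity genes (-1.17) were -0.12, -0.98 and -0.56. List medians turned sign in 5 cases, and the cause was not tested: microfibril genes (1.78) to -0.0349 without a filter, polarity and trafficking genes to 0.0689 with the filter at 7 (1 gene), and cornification genes (1.00) to -2.28 with the filter on the LacZ and Her2 arrays (1 gene) and to -1.08 with a mean of at least 4 and with both arrays at 3 or more (2 genes). Signal over background limits the dim genes, and the number of arrays limits all. No paired analysis was possible because each group has 1 array, so no replicate numbers are shared. An additive fit of both labels over the 4 arrays was not run.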

Other observations

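Small nucleolar and Cajal body RNAs, which guide chemical modification of ribosomal and spliceosomal RNA, were lower on the Her2 array. Of 50 that passed the filter, 13 were at least 2-fold lower and 0 higher than on the LacZ array, with a median of -0.78. Small RNA genes of all classes, these 50 included, leaned the same way. Of 72 that passed, 15 were at least 2-fold lower and 3 higher, with a median of -0.69. Among counted genes, which exclude small RNAs, 2.55% were at least 2-fold lower. SNORD42A read 8.50 on the LacZ array and 6.85 on the Her2 array, and TERC, the telomerase RNA, 5.88 and 4.36. In a list of ribosome biogenesis genes chosen after values were seen, 3 of 14 counted members were at least 2-fold lower and 0 higher, with a median of -0.54: POLR1G, a subunit of RNA polymerase I, differed by -1.53, BOP1 by -1.39 and NLE1 by -1.22. The nucleolar proteins FBL and NOP58 differed by -0.40 and 0.44.

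Of 1018 microRNA genes 9 passed the filter, 3 of them at least 2-fold higher and 0 lower. Among counted genes 2.95% were at least 2-fold higher. The 3 microRNA genes were MIR1299, MIR570 and MIR181B1. Each reached the filter only on arrays labelled with Her2, so a high value there was a condition of passing. MIR181B1 read 2.35 on the LacZ array, 3.88 on the Her2 array, 1.34 on the PIK3CA-H1047R array and 5.10 on the array with both, and was thus higher on both arrays labelled with Her2. A whole-transcript array does not tell the precursor from its host transcript. The 5p arm, 1 of 2 mature arms listed for that gene, is shown with its seed, bases 2 to 8, in capitals (RefSeq, GRCh38.p14, chr1:198858925-198858947, minus strand).
hsa-miR-181b-5p: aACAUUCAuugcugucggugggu

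Symbol families were also chosen after values were seen. Of 49 counted zinc finger genes with ZNF symbols, 6 were at least 2-fold higher and 0 lower, with a median of 0.23, while over all 480 measured 26 were higher and 9 lower, and in the second pair 1 counted one was higher and 6 lower. ZNF480 read 3.32 on the LacZ array and 5.41 on the Her2 array, and ZNF841 5.15 and 6.63. ZNF480 reached the filter only through the Her2 array. Of 8 counted histone genes, 0 were above 0 and 3 were at least 2-fold lower, with a median of -0.66. In the second pair 6 of the 8 were at least 2-fold higher and 0 lower, with a median of 1.85. Genes could be counted through a high value on an array of that pair alone, as H2BC14 was through the array with both. Over all 31 measured histone genes the median in the first pair was -0.22, with 17 near background on both its arrays. Of 15 measured beta protocadherins 1 was counted, PCDHB14, through the Her2 array alone, and 3 were at least 2-fold higher without the filter.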
